A study of Mus musculus with 18 samples.

Results

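The respiratory chain genes described here are 97 of the 55291 gene symbols in the count files. They were taken by symbol, as the structural subunits of complexes I to V plus both mitochondrial rRNAs, with a summed count of at least 180 over the 18 libraries. In all, 98 symbols matched and 1, Cox8c, had no count. Of the 97 members, 82 are nuclear genes (36 of complex I, 4 of complex II, 9 of complex III, 16 of complex IV and 17 of complex V), 13 are the mitochondrially encoded mRNAs and 2 are the mitochondrial rRNAs. Complexes were assigned by the start of the symbol alone, not by where each product sits. Complex IV thus counts Cox7a2l, a supercomplex factor, and Cox6c2, which is annotated as a processed pseudogene in GENCODE M21. The symbol pattern does not take Cox4i1, Cox4i2 or Cycs, which are given apart.

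RNA came from the right hippocampus of male wild-type C57BL/6J mice. All mice were injected at the age of 6 weeks, in the right CA3, with an AAV-DJ vector carrying EGFP-Rpl10a, a tagged protein of the cytosolic ribosome, under the GfaABC1D promoter, which is active in astrocytes. The AAV control group received the vector alone and RNA was collected 2 weeks later. The KA group received kainic acid, a glutamate receptor agonist used to model mesial temporal lobe epilepsy, in the right dentate gyrus 2 weeks after the vector, with collection 14 days after KA, and the PBS group received PBS after the vector. The KA mice were thus older at collection than the AAV control mice and had carried the vector for longer. They also had a further injection into the hippocampus, which the AAV control mice did not have. None of these differences can be told apart from KA in that comparison. Each group had 3 samples of 3 to 4 pooled hippocampi, so the spread between samples is one between pools of mice. Each homogenate gave an input library, which holds RNA of all hippocampal cells, and an IP library, pulled down with anti-GFP, and the labels call both hippocampal astrocyte.

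The mitochondrial inner membrane carries the chain. Complex I and complex II feed electrons from NADH and succinate into ubiquinone, complex III passes them to cytochrome c, complex IV gives them to oxygen, and complex V makes ATP from the proton gradient. Most subunits are encoded in the nucleus, translated on cytosolic ribosomes and imported. The 13 mitochondrial mRNAs are transcribed and translated inside the organelle, on ribosomes that hold the mitochondrial rRNAs and no Rpl10a. The comparison of both gene sets therefore sets transcripts that can sit on a tagged ribosome beside transcripts that are not known to.

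Libraries held 7991681 to 16032180 counts. Sequencing run 1 held samples 1 and 2 from KA and AAV control mice, run 2 held their sample 3 and run 3 all PBS samples, so that the PBS group and its run cannot be told apart. The IP libraries were enriched for 8 of 8 astrocyte markers in every group, with a median log2 difference from input of 2.93 in the AAV control, 2.78 in the PBS and 1.51 in the KA group, and no marker of any list was at 0 in a whole group. The makeup of the IP moved with KA. Summed FPKM (counts scaled to gene length and library size) of the 8 astrocyte markers was 1520 to 2546 in the AAV control IP and 1066 to 1279 in the KA IP, that of 6 oligodendrocyte markers (Mbp and others) 247 to 1037 and 1279 to 2439, and that of 8 neuronal markers 120 to 164 and 239 to 316. In the input, 6 microglial markers summed to 96.3 to 221 in the AAV control and 1283 to 2084 in the KA group. The part of these shifts in the results below was not tested. In bulk RNA, a change in the number of cells of a type and a change in RNA per cell cannot be told apart.

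Part of the mitochondrial genome recurs in the nucleus, and this can affect how reads of the mitochondrial mRNAs are counted. On GRCm38.p6 (mm10), a block of 4650 bases at chr1:24611535-24616184, minus strand, repeats bases 6394 to 11042 of the mitochondrial genome, with whole genes identical letter for letter. The pair of stretches below is shown because it spans the start of mt-Nd3 (chrM:9459-9806, plus strand) and holds a single difference in 100 bases. The capital marks the base that differs, T9461C, with positions counted from 1 along the mitochondrial genome, whose plus strand starts at base 9411 and ends at base 9510 in the first stretch, and the second is chr1:24613068-24613167, minus strand, both 5′ to 3′.
mitochondrial genome: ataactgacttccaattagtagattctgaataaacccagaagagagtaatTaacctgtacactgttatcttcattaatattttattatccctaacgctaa
chromosome 1 copy: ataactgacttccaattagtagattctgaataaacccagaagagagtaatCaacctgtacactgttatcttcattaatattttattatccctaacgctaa

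A read of 100 bases from mt-Co2, mt-Atp8, mt-Atp6, mt-Co3 or mt-Nd4l has an identical place on a nuclear chromosome wherever it starts (100% of windows), as has 98.8% of those from mt-Nd3. The share was 60.8% for mt-Nd4, 30.8% for mt-Co1, 3.2% for mt-Nd2, 1.2% for mt-Rnr2 and 0 for mt-Nd1, mt-Nd5, mt-Nd6, mt-Cytb and mt-Rnr1. The 6 genes with near-complete copies had the lowest mean FPKM of the 13 in the AAV control input, from 5.95 for mt-Atp8 to 251 for mt-Nd3. The other 7 ran from 2176 for mt-Nd5 to 16848 for mt-Cytb. The files do not say how reads with several places were counted, so levels of these 6 genes are not a measure of their abundance against the other 7. Some of the results below are also given without these 6 genes.

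**Figure D1:**
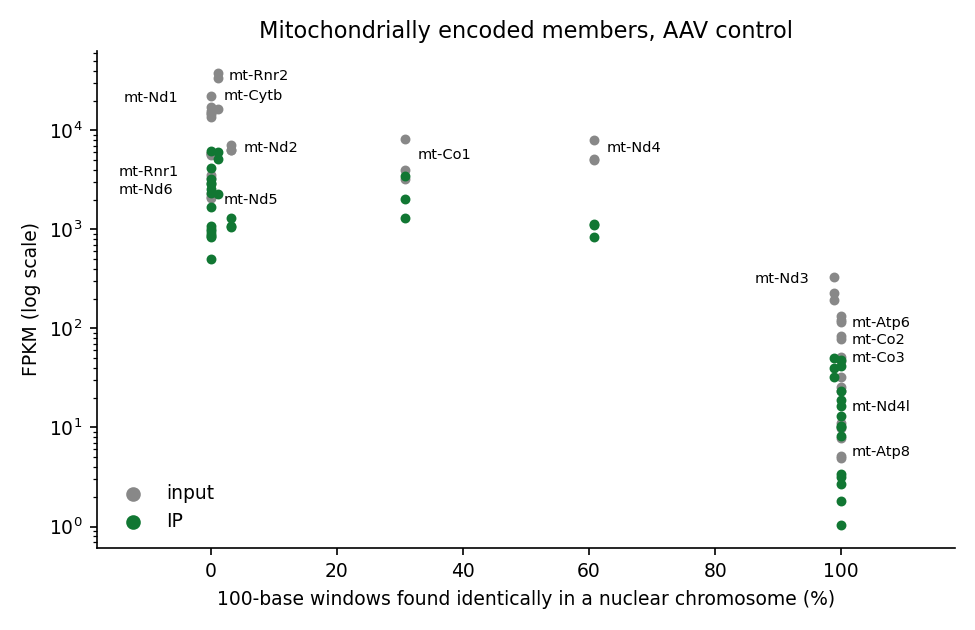
FPKM of the 15 mitochondrially encoded members (vertical axis, log scale; input grey, IP green, 1 point for each AAV control library) against the percentage of their 100-base windows that occur identically in a nuclear chromosome. The 6 genes at 98.8% to 100% lie below the other mitochondrially encoded members, and mt-Atp8, at 0 in 1 IP library, has no point there.

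Nuclear members also have copies. Of 81 with a coding sequence, 64 had no 100-base coding window elsewhere in the genome, 17 had some, and in 8 over 50% of the windows recurred (among them Atp5g1, 92.2%, and Atp5g2, Cox7c, Ndufb4, Atp5l and Atp5md, 100%). Counts of these genes can be shared with those copies. Exons of 26 nuclear members overlap those of another gene, and mt-Nd5 and mt-Nd6 overlap on opposite strands. Whether strand was used in counting is not given in the sources used here.

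Promoters of 68 nuclear member genes were in the RefSeq table (73 windows of 250 bases before to 50 after the start, GRCm38.p6). Searched on both strands, the binding motif of NRF1, a transcription factor of respiratory genes (GCGCA, any base, GCGC), was in 24.7% of member windows against 4.6% of all 32851 promoter windows. The ETS motif CCGGAAG, read by the factor GABP, was in 23.3% against 8.86%, CCAAT in 42.5% against 37.4%, and TATAAA in 12.3% against 13.6%. The median GC content was 57.3% against 52.7%. A match describes letters, not a bound site. The 5 promoters shown belong to complex IV: Cox6a1 and Cox6b1 encode the broadly expressed subunits, and Cox6b2, Cox7a1 and Cox8b are tissue-restricted isoform genes, chosen after their values were seen. They lie at chr5:115348909-115349208 (Cox6a1, minus strand), chr7:30626065-30626364 (Cox6b1, minus), chr7:4753045-4753344 (Cox6b2, minus), chr7:30183921-30184220 (Cox7a1, plus) and chr7:140900397-140900696 (Cox8b, minus). Capitals mark the motifs on either strand (CTTCCGG and ATTGG are the reverse of ETS and CCAAT).
Cox6a1: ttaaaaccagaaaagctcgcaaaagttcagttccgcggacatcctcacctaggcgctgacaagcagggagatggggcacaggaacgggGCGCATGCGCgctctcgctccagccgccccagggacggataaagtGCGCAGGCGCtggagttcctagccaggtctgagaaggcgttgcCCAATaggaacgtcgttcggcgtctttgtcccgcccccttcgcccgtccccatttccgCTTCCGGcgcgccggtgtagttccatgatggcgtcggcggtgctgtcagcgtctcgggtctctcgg
Cox6b1: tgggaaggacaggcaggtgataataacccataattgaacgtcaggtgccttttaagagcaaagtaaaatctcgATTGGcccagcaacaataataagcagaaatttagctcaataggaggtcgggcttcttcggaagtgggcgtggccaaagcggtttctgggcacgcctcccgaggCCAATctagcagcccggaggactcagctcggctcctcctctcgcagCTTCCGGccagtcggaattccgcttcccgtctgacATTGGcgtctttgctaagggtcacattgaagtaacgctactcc
Cox6b2: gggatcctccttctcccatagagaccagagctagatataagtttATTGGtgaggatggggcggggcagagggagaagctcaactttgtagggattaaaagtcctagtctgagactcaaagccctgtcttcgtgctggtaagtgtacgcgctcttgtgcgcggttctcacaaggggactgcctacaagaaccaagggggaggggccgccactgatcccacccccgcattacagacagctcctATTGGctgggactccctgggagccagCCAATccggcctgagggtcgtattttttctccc
Cox7a1: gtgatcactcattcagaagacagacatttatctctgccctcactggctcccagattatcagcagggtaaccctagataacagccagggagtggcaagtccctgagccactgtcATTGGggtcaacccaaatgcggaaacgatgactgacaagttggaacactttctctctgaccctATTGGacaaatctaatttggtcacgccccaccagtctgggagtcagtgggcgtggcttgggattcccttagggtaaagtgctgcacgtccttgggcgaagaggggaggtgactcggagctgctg
Cox8b: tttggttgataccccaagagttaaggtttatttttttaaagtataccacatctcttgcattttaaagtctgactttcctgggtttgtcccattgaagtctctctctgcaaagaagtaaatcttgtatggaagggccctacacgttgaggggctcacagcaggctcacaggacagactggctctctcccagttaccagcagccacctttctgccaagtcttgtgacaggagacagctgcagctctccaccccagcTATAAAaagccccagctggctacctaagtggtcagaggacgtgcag

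Cox6a1 held 2 NRF1 motifs, 1 ETS motif and 1 CCAAT, and Cox6b1 held 1 ETS motif and 3 CCAAT. The isoform genes held neither NRF1 nor ETS letters: Cox6b2 had 3 CCAAT, Cox7a1 had 2, and Cox8b had 1 TATAAA and no other motif searched. Sdhc and Cox6a2 have no entry in the table.

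In the AAV control input, nuclear members ranged from 0.509 FPKM (Cox7b2) to 2410 (Cox6a1), with a median of 188. Cox6a1, Cox8a and Cox6b1, small structural subunits of complex IV, led at 2410 ± 769, 2378 ± 819 and 1062 ± 367 (SD, n = 3). Cox6a1 and Cox8a did not differ beyond their spread, and Cox6b1 lay below both in every library. The isoform partners were low: Cox6a2 stood at 16.1 ± 6.76, Cox8b at 4.99 ± 2.04, Cox7a1 at 3.85 ± 1.31 (Cox7a2: 409 ± 127) and Cox6b2 at 2.11 ± 0.0992. Of the 3 genes for subunit c, the rotor ring of complex V, Atp5g3 had 552 ± 80.1, Atp5g1 117 ± 57.0 and Atp5g2 53.5 ± 7.13.

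Mitochondrial mRNAs took a smaller share of the counts in the IP than in the input in every group, and the smallest in the KA IP. They took 5.55%, 5.93% and 7.90% of the counts in the AAV control input (samples 1, 2 and 3), 11.3%, 9.01% and 8.65% in the PBS input and 5.46%, 6.04% and 7.81% in the KA input. In the IP they took 1.61%, 1.31% and 2.04% in the AAV control, 4.43%, 0.93% and 3.4% in the PBS and 0.791%, 0.76% and 0.383% in the KA group. Each IP library lay below every input library, and every KA IP library lay below every AAV control and PBS IP library. PBS sample 2 and KA sample 3 stood apart from the others of their groups. The 95% Wilson interval of a single share was at most 0.0391 percentage points wide, which covers counting error only.

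The 82 nuclear members did not follow. Their share was 3.06%, 3.08% and 3.70% in the AAV control IP, 3.42%, 3.82% and 2.60% in the PBS IP and 2.88%, 2.98% and 5.12% in the KA IP, against 2.54% to 4.61% in the inputs, so that all groups overlapped. Counts of mitochondrial mRNAs for each count of the nuclear members averaged 2.08, 2.60 and 1.74 in the AAV control, PBS and KA inputs. In the IPs they were 0.526, 0.425 and 0.551 in the AAV control, 1.29, 0.243 and 1.31 in the PBS and 0.274, 0.255 and 0.0749 in the KA group, so that PBS sample 2 lay within the KA range.

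**Figure D2:**
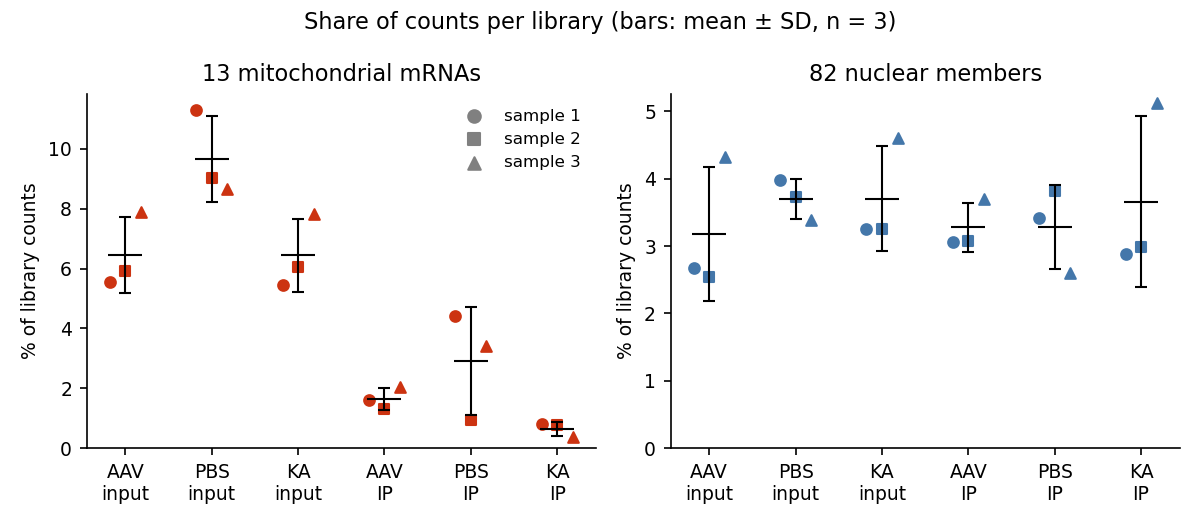
Percentage of the counts of each library that fell on the 13 mitochondrial mRNAs (left) and on the 82 nuclear members (right); bars are mean ± SD of 3 samples, and circle, square and triangle are samples 1, 2 and 3. The KA IP libraries lie between 0.383% and 0.791% on the left, below all others, whereas on the right the groups overlap.

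The median IP to input ratio, formed within each homogenate from FPKM, was higher for the nuclear than for the mitochondrial set in all 9 homogenates. Single genes overlapped, such as nuclear Cox6a2 at 0.133 and mt-Co1 at 0.631 in AAV control sample 1. The median ratio of the nuclear members was 1.23, 1.32 and 0.929 in the AAV control, 0.972, 1.08 and 0.853 in the PBS and 0.917, 0.943 and 1.18 in the KA homogenates. The median of the 13 mitochondrial mRNAs was 0.222, 0.193 and 0.335 in the AAV control, 0.272, 0.0894 and 0.383 in the PBS and 0.114, 0.116 and 0.0465 in the KA homogenates. All 13 were below 1 in all 9 homogenates, and PBS sample 2 had a lower median than KA samples 1 and 2. Group means were 1.16 ± 0.205, 0.968 ± 0.114 and 1.01 ± 0.145 for nuclear and 0.25 ± 0.075, 0.248 ± 0.148 and 0.0922 ± 0.0396 for mitochondrial members (SD, n = 3). Without the 6 genes with nuclear copies, the latter were 0.254, 0.295 and 0.0919. For scale, the median ratio of the neuronal markers averaged 0.163 in the AAV control, 0.193 in the PBS and 0.417 in the KA group, that of the microglial markers 0.113, 0.124 and 0.0587, that of the oligodendrocyte markers 0.706, 0.678 and 2.3, and that of the cytosolic ribosomal protein genes 0.739, 0.637 and 0.68.

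By gene, edgeR's quasi-likelihood test placed 9 of 12 tested mitochondrial mRNAs lower in the IP of the AAV control group at an adjusted p under 0.05, which is the rule for passing the test throughout, and none higher (20.3% of 9961 genes were lower and 19.4% higher). The median log2 difference was -1.99 and the range -2.71 to -1.02, against a median of 0.01 over all genes tested. mt-Nd2, a membrane arm subunit of complex I, had 6293, 6409 and 7136 FPKM in the input and 1312, 1054 and 1092 in the IP (log2 -2.37, SE 0.24, adjusted p = 0.000304). mt-Cytb, a catalytic subunit of complex III, fell from 13667, 14717 and 22159 to 4136, 2847 and 6172 (-1.78, adjusted p = 0.0147). In both genes the fractions did not overlap. Also lower were mt-Atp6 (-2.71), mt-Nd3 (-2.46), mt-Nd4 (-2.41), mt-Nd1 (-2.31), mt-Nd4l (-2.19), mt-Nd6 (-1.39) and mt-Nd5 (-1.13). The genes of complex IV, mt-Co1 (-1.02, adjusted p = 0.179), mt-Co2 (-1.26, 0.0979) and mt-Co3 (-1.27, 0.283), did not pass in this fit. It does not use the homogenate shared by IP and input, and with the homogenate as a block these genes passed too, as given below. Both rRNAs were lower, mt-Rnr1 by -2.54 and mt-Rnr2 by -2.57.

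The PBS and KA groups gave the same direction. In the PBS group 10 of 13 mitochondrial mRNAs were lower in the IP (27.7% of 10401 genes lower and 28.6% higher), with a median log2 difference of -2.01 and a range of -3.0 (mt-Atp6) to -0.62 (mt-Nd6, adjusted p = 0.379). mt-Co1 (-1.04, 0.112) and mt-Nd5 (-0.75, 0.232) did not pass. In the KA group all 11 tested were lower (15.3% of 10098 genes lower and 19.1% higher), with a median of -3.23 and a range of -3.66 (mt-Nd1) to -2.17 (mt-Co1). mt-Nd1 had 12798, 14672 and 17864 FPKM in the KA input and 1275, 1346 and 560 in the KA IP (log2 -3.66, SE 0.37, adjusted p = 0.000236). mt-Rnr1 and mt-Rnr2 were lower by -2.09 and -2.13 in the PBS and by -2.46 and -2.28 in the KA group. With the homogenate as a block, which the shared homogenate of each IP and input pair warrants, all 12 tested mitochondrial mRNAs were lower in the AAV control, all 13 in the PBS and all 11 in the KA group.

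Nuclear members were spread around a small positive median in the IP. In the AAV control group 10 of 81 were higher and 3 lower (12.3% and 3.7% against the 19.4% and 20.3% above), with a median log2 difference of 0.31. In the PBS group 10 of 82 were higher and 6 lower (median 0.11), and in the KA group 10 of 79 higher and 1 lower (median 0.30). With the homogenate block these counts were 41 and 11 in the AAV control, 12 and 12 in the PBS and 32 and 7 in the KA group, against 30.4% higher and 30.9% lower of all genes, 31.2% and 29.9%, and 27.6% and 25.3%. By complex, the median in the AAV control was 0.29 for complex I, 0.65 for II, 0.51 for III, -0.08 for IV and 0.33 for V. It was 0.02, 0.36, 0.32, -0.13 and 0.25 in the PBS and 0.26, 0.55, 0.48, -0.03 and 0.41 in the KA group. The succinate dehydrogenase genes of complex II were thus highest and the complex IV genes lowest in each group, and this order was not tested.

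Cox6b2 and Cox6a2 lay at the ends. Cox6b2 (chr7:4751792-4753094, minus strand), an isoform gene of subunit 6B known mainly from testis, had 2.03, 2.08 and 2.22 FPKM in the AAV control input and 22.7, 22.0 and 31.9 in the IP, 13.4-fold higher by the fit (log2 3.75, SE 0.28, adjusted p = 0.000137). The PBS group gave 1.26, 2.35 and 2.57 in the input and 27.5, 22.4 and 25.5 in the IP (3.75, adjusted p = 8.72e-07). The KA group gave 3.94, 4.74 and 7.70 in the input and 26.8, 14.4 and 32.2 in the IP (2.38, 0.00259). In all groups the lowest IP library exceeded the highest input library. Cox6b1, its broadly expressed partner, did not pass the test in any group (0.17, 0.10 and 0.27).

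Cox6a2 (chr7:128205435-128206387, minus strand), the heart and skeletal muscle isoform of subunit 6A that is also found in some interneurons, was the reverse. It had 13.1, 11.4 and 23.8 FPKM in the AAV control input and 1.74, 2.0 and 3.21 in the IP (log2 -2.62, SE 0.45, adjusted p = 0.00299). In the PBS group it had 17.9, 17.6 and 22.0 and 3.67, 1.54 and 1.82 (-2.82, 9.74e-06). In the KA group it had 17.9, 13.9 and 23.2 and 1.19, 1.41 and 0.939, which failed the filter of FPKM above 1 in all libraries (unfiltered -3.65, 5.68e-28). The fractions did not overlap in any group. Exons of Cox6a2 overlap those of Itgad on the other strand.

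Sdhc (chr1:171127165-171150603, minus strand), a membrane anchor of complex II, was higher in the IP of all groups. It had 29.4, 28.7 and 29.5 FPKM in the AAV control input and 72.1, 70.6 and 57.7 in the IP (log2 1.34, SE 0.15, adjusted p = 0.000466), and differed by 1.25 in the PBS and 0.93 in the KA group (0.000272 and 0.000889). Sdhc and Cox6b2 passed under every alternative run in all groups. Uqcrfs1, the Rieske protein of complex III, also passed in all groups (1.0, 0.71 and 0.65).

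Among other nuclear members higher in the AAV control IP, Ndufc2 (chr7:97400003-97407802, plus strand), an accessory subunit of complex I, had 612, 583 and 491 FPKM in the input and 1534, 1635 and 719 in the IP (log2 1.34, adjusted p = 0.00798), with sample 3 well below the others. Ndufb11 (0.99), Ndufb7 (0.78), Ndufb10 (0.75), Sdhd (0.71), Atp5l (0.66) and Uqcrh (0.60) also passed, and Atp5md (-1.20) and Ndufa5 (-0.81) were lower. In the PBS group Cox8b (1.96), Cox7a1 (1.63), Cox7b2 (1.19), Ndufc2 (1.02), Ndufa7 (0.78), Atp5e (0.77) and Ndufb11 (0.68) were higher, and Atp5g1 (-1.19), Ndufa5 (-1.08), Atp5md (-1.07), Ndufb9 (-0.83) and Cox7a2l (-0.59) lower. In the KA group, among others, Cox7a1 (2.18), Atp5pb (0.54), Uqcrc2 (0.48), Ndufs3 (0.47), Ndufv1 (0.44) and Sdhd (0.43) were higher and Cox7a2l (-0.36) was lower. Cox7b2, with 0.293 to 0.773 FPKM in the AAV control input and 4.90 to 8.30 in the IP, failed the filter there (unfiltered 3.69, adjusted p = 3.23e-07).

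**Figure D3:**
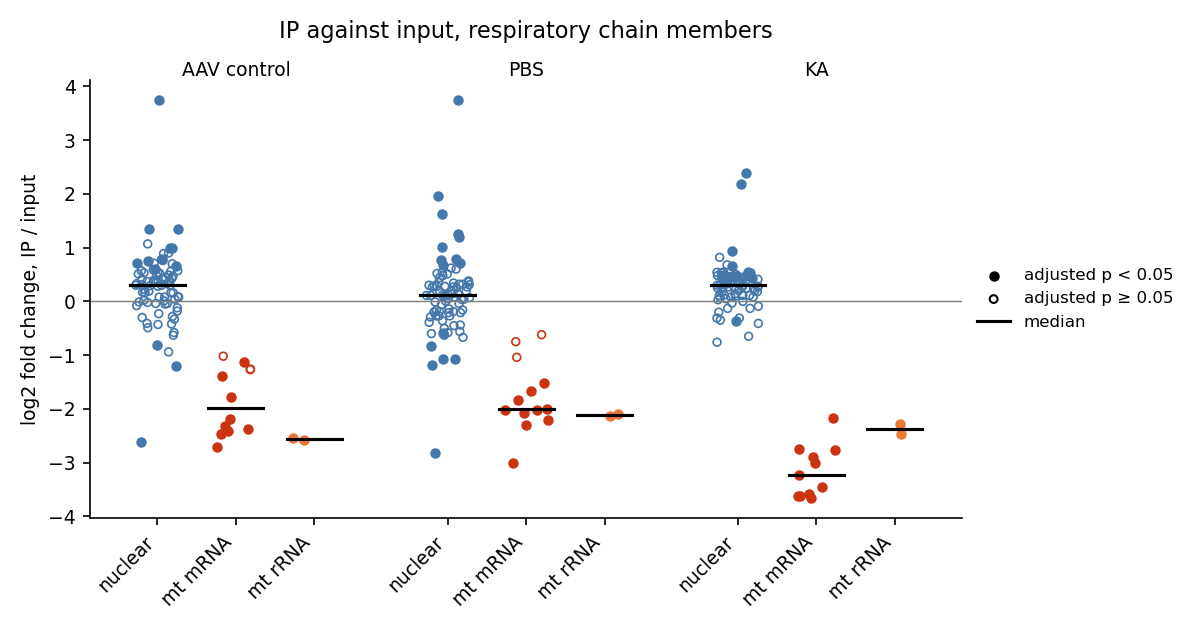
log2 fold change of IP over input (vertical axis) of each tested member in the AAV control, PBS and KA groups; filled points passed edgeR's test at an adjusted p under 0.05 and lines are medians. Mitochondrial mRNAs lie below 0 in all groups, with medians of -1.99, -2.01 and -3.23, and the nuclear medians are 0.31, 0.11 and 0.30.

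The next comparison sets the astrocyte IP of the KA group beside that of the AAV control. Against the AAV control, 8 of 11 tested mitochondrial mRNAs were lower in the KA IP and none higher (9.74% of 9729 genes were lower and 10.4% higher), all 8 by more than 1 on the log2 scale, as were 5.22% of all genes. The median was -1.34 (all genes: -0.02), the range -1.67 to -0.73, and in 10 of 11 the groups did not overlap (20.2% of all genes in this direction). mt-Nd5, a proton-pumping subunit of complex I, had 864, 1000 and 830 FPKM in the AAV control IP and 402, 432 and 232 in the KA IP (log2 -1.30, SE 0.24, adjusted p = 0.0104). mt-Nd2 had 1312, 1054 and 1092 and 544, 518 and 272 (-1.34, SE 0.26, 0.0119). Both genes passed under all 14 alternatives.

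mt-Co2 (-1.55), mt-Nd1 (-1.45), mt-Cytb (-1.45), mt-Nd6 (-1.42), mt-Nd4 (-1.23) and mt-Nd3 (-1.02) were also lower. mt-Co3 (-1.67, adjusted p = 0.0931), mt-Co1 (-1.18, 0.0867) and mt-Atp6 (-0.73, 0.363) did not pass, and mt-Atp8 and mt-Nd4l failed the filter (unfiltered -0.65 and -0.93, adjusted p = 0.776 and 0.534). mt-Rnr1 was lower (-0.94, 0.0456) and mt-Rnr2 gave -0.90 (0.238). Of the 7 genes without full nuclear copies, 6 passed, with a median of -1.34. Leaving out a single library took the count from 8 to 2 (without KA sample 1, KA sample 2 or AAV sample 1) or 3 (without KA sample 3), while the median stayed between -1.46 and -1.04.

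Only the first run offers a replicated within-run test. In run 1 alone, with 2 samples a group, 8 of 12 mitochondrial mRNAs were lower (all genes: 22.3%) and the median was -0.78. Sample 3, run 2, gave -2.18 as the difference of its KA and AAV libraries, and samples 1 and 2 gave -0.98 and -0.45. With the run as a covariate 10 of 11 were lower, and with the replicate number as a block 8, for which the share of all genes lower is not given here. The size of the difference thus varied between samples and its direction did not.

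Few nuclear members passed the main test in the same libraries. Only 2 of 80 were higher after KA and none lower, a share of 2.5% against 10.4%, and the median was 0.21. Complex V had all 17 fold changes above 0 (median 0.29), complex I 26 of 36 (0.14), complex III 8 of 9 (0.21), complex IV 11 of 14 (0.34) and complex II 1 of 4 (-0.07). In run 1 alone 16 nuclear members were higher and 13 lower of 81, with a median of 0.02, and sample 3 gave 0.57. The share of all genes lower in that fit stands above and the share higher is not given here. These counts are therefore not read as a result about the members. With the replicate number as a block 6 were higher (Cox7a1, Atp5g1, Atp5md, Cox5a, Atp5b and Ndufa1), against 17.3% of all genes, and with the run as a covariate 12, against 20.1%.

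Cox7a1 (chr7:30184144-30186078, plus strand), the heart and muscle isoform of subunit 7A, was 1 of the 2. It had 4.64, 5.28 and 11.8 FPKM in the AAV control IP and 22.8, 19.4 and 64.1 in the KA IP (log2 2.34, SE 0.62, adjusted p = 0.0343). The groups did not overlap, and sample 3 was the highest in both. The call was lost without KA sample 1 (0.0519), KA sample 3 (log2 1.48, 0.0861), AAV sample 1 (0.107) or AAV sample 2 (0.11). Its partner Cox7a2 gave 332, 348 and 402 and 335, 332 and 663 (0.38, 0.491).

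Atp5g1 (chr11:96068852-96075670, minus strand) had 50.6, 47.1 and 68.9 FPKM in the AAV control IP and 112, 116 and 204 in the KA IP, again with no overlap (log2 1.45, SE 0.36, adjusted p = 0.0262). The call was lost without KA sample 2 (0.0503), KA sample 3 (1.02, 0.0506), AAV sample 1 (0.0981) or AAV sample 2 (0.0941). The other genes for subunit c gave 0.07 (Atp5g2) and 0.21 (Atp5g3), both with an adjusted p above 0.6 in edgeR, and Atp5g1 shares 92.2% of its coding windows with 1 other locus.

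Cox8b (chr7:140898945-140900446, minus strand), the heart and muscle isoform of subunit 8, went the other way. It had 6.59, 11.3 and 4.77 FPKM in the AAV control IP, 7.28, 6.81 and 5.82 in the PBS IP and 0.499, 0.267 and 1.27 in the KA IP, where it failed the filter. These are 22, 39 and 22 counts, 42, 28 and 22 counts, and 2, 1 and 5 counts. The KA libraries lay below all others, and the unfiltered fit gave -3.23 against the AAV control (SE 0.65, adjusted p = 2.15e-05) and -3.04 against PBS (2.24e-05). These fitted values rest on few counts. In the input of the same homogenates Cox8b was not low: 8.45, 6.41 and 11.2 FPKM in the KA group, against 5.91, 6.40 and 2.65 in the AAV control and 1.66, 1.55 and 2.46 in the PBS group. Its partner Cox8a gave -0.03 in the KA IP against the AAV control (0.967).

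**Figure D4:**
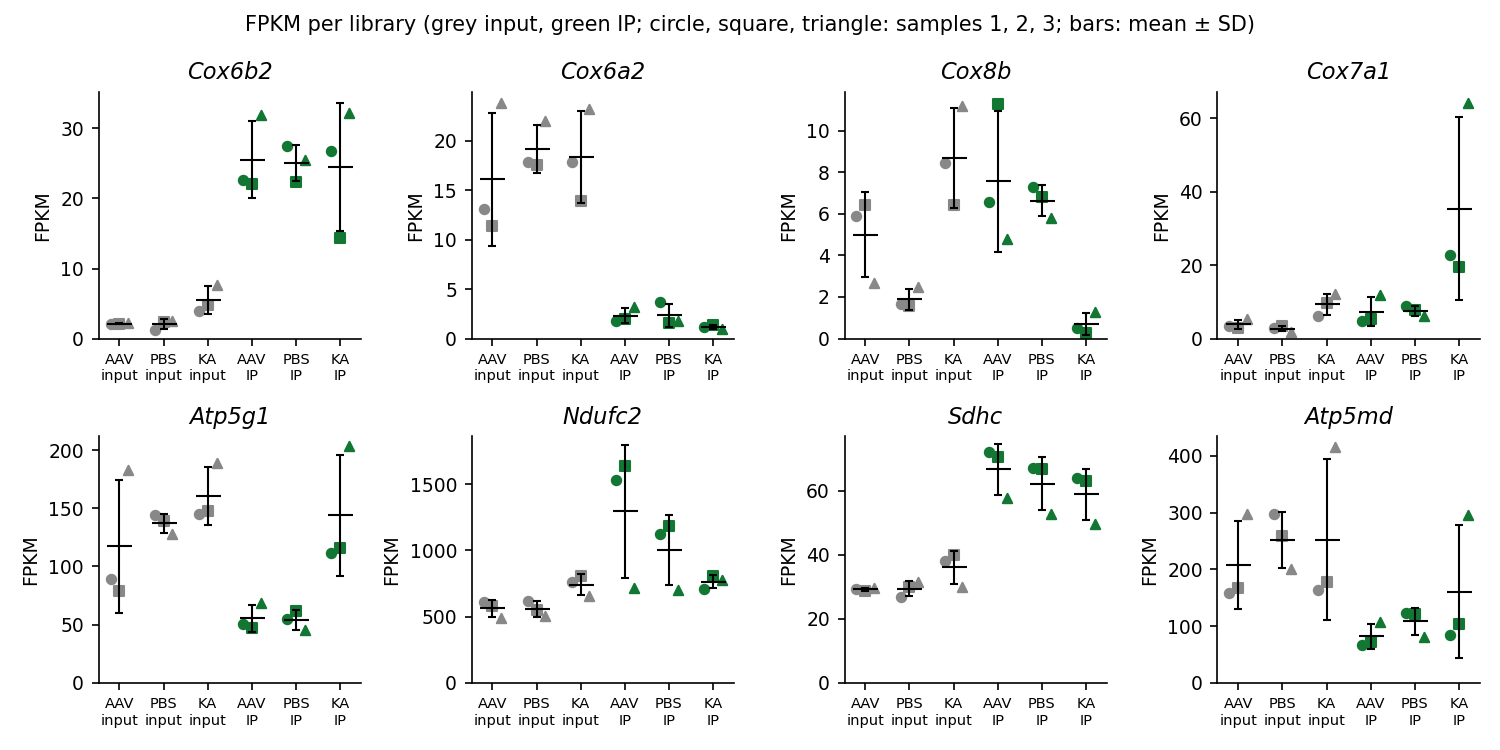
FPKM per library (linear axis from 0) of 8 nuclear members in the input (grey) and IP (green) of each group; circle, square and triangle are samples 1, 2 and 3, and bars are mean ± SD of 3 samples. Cox8b falls to 0.267 to 1.27 in the KA IP and Cox7a1 reaches 19.4 to 64.1 there.

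In the input, no member passed the test between the KA and AAV control groups. None of 81 nuclear members and none of 13 mitochondrial mRNAs passed edgeR's test (3.54% of 10809 genes were higher and 0.944% lower), 3 nuclear and 0 mitochondrial members had an unadjusted p under 0.05, and DESeq2 called 3 nuclear members. The mitochondrial mRNAs had a median of 0.01 and a range of -0.17 (mt-Co3) to 0.48 (mt-Atp8 and mt-Nd4l). Approximate 95% limits, from the SE and a normal distribution, were -0.67 and 0.42 for mt-Nd2 and -0.71 and 0.73 for mt-Cytb. They are narrower than limits that match edgeR's test would be. The nuclear median was 0.24, and 78 of 81 values were above 0. Tested nuclear members are short, with a median gene length of 1586 bases against 4111 over all genes, and the 1507 tested genes up to that length had a median of 0.12. Genes chosen in the same way had a median of -0.02 in the KA IP against the AAV control. Cox6b2 (1.38, adjusted p = 0.0684) and Cox7a1 (1.24, 0.135) had the highest values and Ndufa5 (-0.14) and Ndufs1 (-0.08) the lowest.

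The input values differed between samples 1 and 2 (run 1) and sample 3 (run 2), and run and sample cannot be told apart there. In run 1 alone 59 of 81 nuclear members were higher and 1 lower (72.8% against 20.7% of all genes), with a median of 0.34, and 5 of 13 mitochondrial mRNAs were higher (median 0.15). Sample 3 gave medians of -0.01 and -0.20. Without AAV control sample 3 alone, 28 nuclear and 3 mitochondrial members passed (all genes: 13.1% higher and 10.7% lower). The blocked fit had 5 nuclear members higher (Cox6b2 1.36, Cox7a1 1.27, Atp5e 0.65, Atp5j2 0.48 and Ndufa1 0.45) and the fit with a run covariate 16. The share of all genes in both fits is not given here, so these counts are not read as a result about the members. The rRNAs split most: mt-Rnr2 had 33823, 37709 and 16523 FPKM in the AAV control and 7263, 7870 and 21876 in the KA input, a median rRNA difference of -2.17 and -2.28 in samples 1 and 2 and of 0.29 in sample 3.

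**Figure D5:**
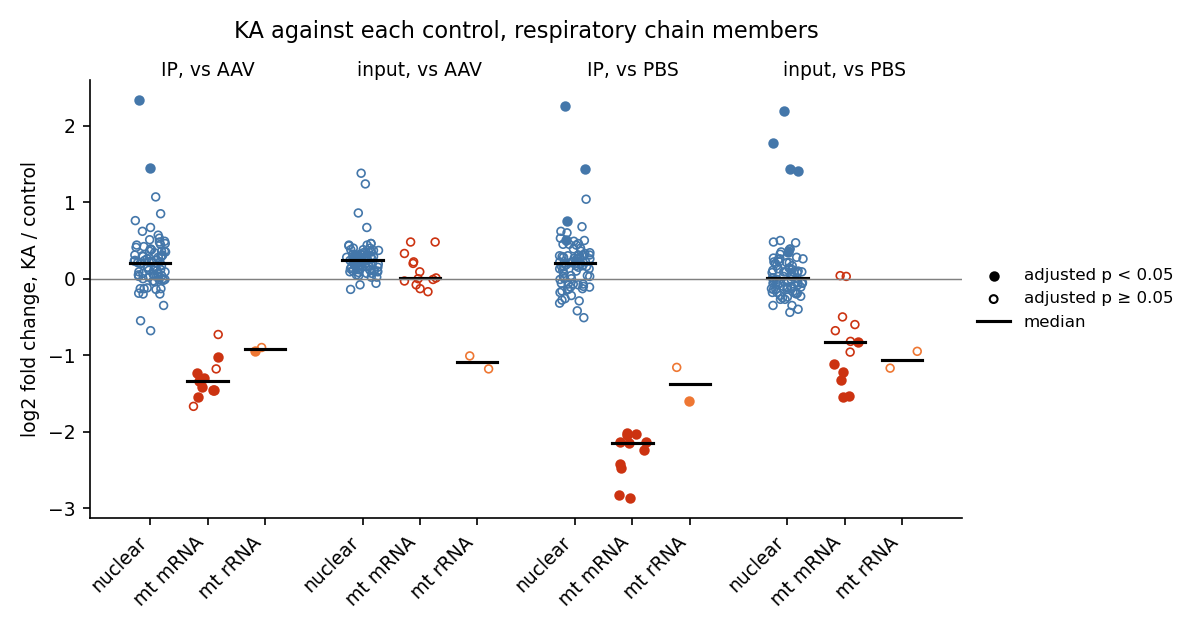
log2 fold change of KA over the AAV control and over PBS (vertical axis) in IP and input for each tested member; filled points passed edgeR's test at an adjusted p under 0.05 and lines are medians. Mitochondrial mRNAs have medians of -1.34 and -2.15 in the IP and 0.01 and -0.83 in the input, and the nuclear medians lie between 0.01 and 0.24.

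Against the PBS group, all 11 tested mitochondrial mRNAs were lower in the KA IP (18.9% of 9847 genes lower and 18.2% higher). This comparison shares the KA libraries with the one before. The median was -2.15 and the range -2.87 (mt-Co3) to -2.02 (mt-Nd1). mt-Nd2 had 3839, 802 and 2850 FPKM in the PBS IP and 544, 518 and 272 in the KA IP (log2 -2.47, SE 0.49, adjusted p = 0.00354). mt-Cytb had 10784, 2051 and 8576, and 2012, 1815 and 969 (-2.13, 0.0132). PBS sample 2 lay far below the other PBS samples in both genes and just above the KA libraries. In 8 of the 11 the groups did not overlap (23.3% of all genes in this direction), and in mt-Nd4, mt-Nd5 and mt-Nd6 PBS sample 2 lay below KA libraries (mt-Nd5: 2408, 390 and 1635 against 402, 432 and 232). mt-Rnr1 was lower (-1.60, 0.0155) and mt-Rnr2 gave -1.16 (0.147), both with overlap.

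Of the nuclear members 4 of 80 were higher in the KA IP and none lower (median 0.20). Cox7a1 rose from 8.75, 7.85 and 6.05 FPKM to 22.8, 19.4 and 64.1 (log2 2.26, SE 0.48, adjusted p = 0.00468), and Atp5g1 from 54.9, 61.7 and 45.2 to 112, 116 and 204 (1.43, SE 0.34, 0.00783). Both passed under all 12 alternatives. Ndufs4, an accessory subunit of complex I, gave 0.75 (0.0218) and Cox7a2l, a supercomplex factor, 0.51 (0.0369), and both lost the call in some alternatives. Without KA sample 3, 5 were higher and 4 lower (all genes: 18.6% and 18.1%) and the median was -0.28. The count of passing nuclear members was 2 without PBS sample 1 or 3.

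In the input, 6 of 13 mitochondrial mRNAs were lower in the KA than in the PBS group (12.2% of 10849 genes lower and 15.5% higher) and the median was -0.83. Of the 6, mt-Atp6 (-1.55), mt-Co3 (-1.54), mt-Nd3 (-1.32), mt-Atp8 (-1.22) and mt-Co2 (-1.11) are genes with near-complete nuclear copies, and mt-Nd2 (-0.83, adjusted p = 0.0361) was the only one of the other 7. mt-Nd5 gave 0.04 and mt-Nd6 0.03. Without those copies the median was -0.60. The count was 2 without KA sample 1, 3 without PBS sample 1 and 10 without KA sample 3.

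Of the nuclear members 5 of 81 were higher in the KA than the PBS input and none lower (median 0.01), and all 5 carry Cox symbols, though Cox6c2 is a processed pseudogene and Cox7a2l a supercomplex factor. Cox8b had 1.66, 1.55 and 2.46 FPKM in the PBS and 8.45, 6.41 and 11.2 in the KA input (log2 2.19, SE 0.38, adjusted p = 0.00206). Cox7a1 rose from 2.98, 3.30 and 1.84 to 6.25, 9.61 and 12.1 (1.77, SE 0.36, 0.00527), and Cox6b2 from 1.26, 2.35 and 2.57 to 3.94, 4.74 and 7.70 (1.41, SE 0.35, 0.0127). The groups did not overlap in any of these 3 (in all 15 nuclear members, against 18.4% of all genes in this direction), all of which passed under all 12 alternatives. Their promoters, printed above, held no NRF1 or ETS letters, as is usual, since these were in only 24.7% and 23.3% of member windows. A link between these letters and the change was not tested. Cox6c2 (1.43, 0.0459) and Cox7a2l (0.35, 0.0405) lost the call in several alternatives. Counts were 3 without KA sample 1 or 2 or PBS sample 2 or 3, and without KA sample 3 there were 10 higher and 30 lower (all genes: 22.8% higher and 21% lower), with a median of -0.23.

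PBS and AAV control samples differed by no gene at an adjusted p under 0.05 in edgeR in either fraction (0.0% of 10667 and of 10924 genes), with 1153 and 901 genes at an unadjusted p under 0.05. All tested mitochondrial mRNAs had values above 0 (PBS higher) in both: the median log2 difference was 0.98 in the IP, from 0.49 (mt-Co2) to 1.80 (mt-Nd3), and 0.95 in the input, from 0.21 (mt-Nd6) to 1.77 (mt-Atp6). In the input 10 of 13 did not overlap between groups (5.0% of all genes in this direction), and 7 had an unadjusted p under 0.05 (DESeq2: 3 called). Nuclear medians were 0.00 and 0.22, with extremes of Cox6c2 (-1.03) and Ndufa1 (0.58) in the IP and Cox8b (-1.32) and Ndufa1 (0.81) in the input. Without AAV control sample 3, 61 nuclear members were higher and 2 lower and 10 mitochondrial mRNAs higher in the input, where 18.3% of all genes were higher and 18.2% lower. In the IP 2 nuclear members were higher and 1 lower and 3 mitochondrial mRNAs higher, beside 4.89% and 5.35% of all genes.

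Whether KA acted differently on IP and input was tested as an interaction over 12 libraries. With the AAV control as baseline, 2 of 11 mitochondrial mRNAs had a lower KA effect in the IP than in the input (5.99% of 9180 genes lower and 7.19% higher), mt-Nd5 at -1.62 (SE 0.30, adjusted p = 0.00419) and mt-Nd6 at -1.61 (SE 0.47, 0.0415). All 11 values were below 0, with a median of -1.35 and a range of -1.63 (mt-Co2) to -0.92 (mt-Atp6). mt-Nd1 (-1.35, 0.0643) and mt-Nd2 (-1.20, 0.0559) missed the threshold. With the homogenate as a block 8 of 11 passed (all genes: 17.3%), and 8 of 12 in run 1 alone (median -0.84). The rRNAs gave 0.10 and 0.31. mt-Nd5 passed under all 20 alternatives. mt-Nd6 lost its call in 9 of 20, namely without any single library other than the IP of KA sample 2, the IP of AAV control sample 3 or the input of KA sample 3 (adjusted p 0.0538 to 0.0979).

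Of the nuclear members 1 of 79 passed against the AAV control and the median was -0.04. This was Ndufc2 (-1.06, SE 0.32, adjusted p = 0.0499), which did not pass in either fraction alone (-0.68 in the IP and 0.40 in the input) and lost the call in 13 of 20 alternatives. The blocked fit had 2 higher (Atp5g1 0.86 and Atp5md 0.65) and 6 lower (among them Cox6b2 -1.38 and Ndufc2 -1.01), and run 1 alone 2 higher and 30 lower (16.7% of all genes lower), with a median of -0.33. The unfiltered fit put Cox8b at -4.06 (1e-05).

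With PBS as baseline, mt-Nd6 (-2.46, SE 0.77, adjusted p = 0.0307) and mt-Nd5 (-2.07, SE 0.63, 0.0282) again passed, of 11 (14.7% of 9305 genes lower and 10.8% higher), and the median was -1.47. Both calls were lost without the IP of PBS sample 1 (mt-Nd5 -1.46, 0.0697, and mt-Nd6 -1.61, 0.0843) or KA sample 3, or without the input of KA sample 1 or 2 or PBS sample 2 or 3, and mt-Nd6 also without the IP of KA sample 1, with adjusted p from 0.0515 to 0.0843. The PBS and AAV baselines share the KA libraries. Atp5g1 was higher (1.20, SE 0.41, 0.0444) and Cox6b2 lower (-1.44, SE 0.49, 0.0443) in the IP than in the input, but the calls were lost in 8 and 13 of 18 alternatives. The homogenate block gave 4 nuclear members higher, 2 lower and 5 mitochondrial mRNAs lower. The shares of all genes above belong to the fit without this block, and those with it are not given here. Cox8b, unfiltered, stood at -5.17 (1.4e-09).

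Genes around the chain were counted in lists. Cox4i1, the main subunit 4 isoform, passed in none of the KA comparisons but the input against PBS (0.58, adjusted p = 0.0326), and its lung isoform Cox4i2 was higher in the IP of the AAV control (2.08, 0.000978) and PBS groups (1.65, 0.00305). Cycs, cytochrome c, gave 1.30 in the KA IP against the AAV control (0.051) and 1.06 against PBS (0.0391). Etfa and Etfb, which hand electrons from fatty acid oxidation to ubiquinone, were higher in the AAV control IP by 2.06 and 1.92, and Etfb was lower in the KA than the AAV control IP (-0.89, 0.0444). That was the single call among 7 tested genes of this list, and Ndufa4l2 failed the filter in the IP.

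Of 43 tested assembly factors 1 was higher and 2 lower in the KA IP against the AAV control, where 10.4% of all genes were higher and 9.74% lower (Coa6 0.98, Ttc19 -0.74 and Cox11 -0.71), and of 13 tricarboxylic acid cycle genes 1 and 2 (Mdh2 0.80, Suclg2 -0.70 and Cs -0.69). Among 14 genes for expression of the mitochondrial genome and its regulators, Ppargc1a, a coactivator of mitochondrial biogenesis, was lower. It had 15.9, 15.5 and 8.76 FPKM in the AAV control IP, 11.9, 8.71 and 10.5 in the PBS IP and 6.77, 6.87 and 6.26 in the KA IP, below all others (log2 -0.94, SE 0.21, adjusted p = 0.0178, and -0.64, 0.0119, against PBS). Its input gave -0.13 and 0.02. Ppargc1b was higher (0.96, 0.0311). Tfam, which packages and transcribes mitochondrial DNA, gave 0.19 against the AAV control (0.583) and 0.61 against PBS (0.016), and the mitochondrial RNA polymerase Polrmt failed the filter in the KA IP.

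The mitochondrial ribosomal proteins, which are nuclear genes, had 4 of 77 higher and none lower against the AAV control and 30 of 77 and none against PBS, with medians of 0.13 and 0.38, beside 10.4% and 18.2% of all genes higher. The cytosolic ribosomal protein genes had 4 of 86 and 23 of 87 higher and none lower (0.26 and 0.43). The leading gene was Mrps6, with 62.5, 61.5 and 45.2 FPKM in the AAV control IP, 35.7, 35.2 and 36.0 in the PBS IP and 270, 259 and 224 in the KA IP (log2 2.21, SE 0.17, adjusted p = 0.000369, and 2.81, 9.19e-06). Of 5 tested mitochondrial tRNAs 1 was lower against the AAV control (mt-Te, -2.17) and 3 against PBS. In the KA input against the AAV control, no gene of these lists passed except 1 of 13 cycle genes (Suclg2, 1.05) and 1 of 91 cytosolic ribosomal protein genes.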

How the data were processed

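Right hippocampus RNA was measured by RNA-seq in 18 libraries (KA, AAV control and PBS groups, input and IP, 3 samples each). The authors prepared libraries with a NEBNext Ultra II kit and aligned reads with STAR to mm10, and the submitters' notes also name featureCounts and edgeR. The deposited files hold raw counts and FPKM per gene as the authors made them. The counting options, annotation, use of strand and treatment of multi-mapping reads are not given in the sources used here, nor is the time of collection in the PBS group.

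Members were the symbols given in the opening. Members and gene lists were chosen with earlier results of these data known. Counts were compared by edgeR 4.0.16 (R 4.3.3; quasi-likelihood test, TMM, 2-sided) over all genes whose FPKM exceeded 1 throughout the libraries compared, with Benjamini-Hochberg adjustment and a threshold of 0.05. SEs are the log2 fold change over the square root of F. Only compared groups entered a fit. A gene called a DEG also had a log2 change of at least 1. The tests were checked on simulated data. No 2 libraries held duplicate counts.

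Named were all mitochondrial members, the 5 nuclear members with the largest passing change in each direction (10 for IP against input and KA against AAV control, otherwise the 2 most extreme), nuclear DEGs, isoform pairs, members failing the filter, and from related lists a few fixed genes and up to 3 passing genes in each direction. Other genes are named where a count of 5 or fewer is spelled out. The values of 1 passing gene are not reported here.

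IP and input of a number came from 1 homogenate (correlations of deviations from group means 0.155 to 0.752 over 9001 genes). Same-numbered KA and AAV control samples also deviated together (0.348 to 0.551 in the IP, 0.352 to 0.55 in the input) and shared runs. The main tests used neither pairing, which entered tests only through the replicate or homogenate block.

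Alternatives were DESeq2 1.42.0 (test and size factors), limma 3.58.1 (voom), no FPKM filter, a summed count of at least 1800, mitochondrial genes or rRNAs left out of the totals, TMM-scaled CPM for the ratios, a replicate block and each library left out. Run 1 only, a run covariate and fits read without the 6 mitochondrial or 17 nuclear members with copies were added after the data were seen. Locations came from GENCODE M21, which matched 96.4% of symbols and 95 members, and promoters from RefSeq (GRCm38.p6). Library totals had a median of 10313125.5 counts.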

Additional observations from a re-analysis of the deposited data

Results flagged for a closer look

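The effect of KA differed between IP and input, by edgeR's interaction test at an adjusted p under 0.05, for these members. With the AAV control as baseline the log2 difference (IP minus input) was -1.62 for mt-Nd5, -1.61 for mt-Nd6 and -1.06 for Ndufc2, where 7.19% of all genes were higher and 5.99% lower. mt-Nd6 lost this call in 9 and Ndufc2 in 13 of 20 alternatives, and mt-Nd5 in none. With PBS as baseline it was -2.46 for mt-Nd6, -2.07 for mt-Nd5, -1.44 for Cox6b2 and 1.20 for Atp5g1, beside 10.8% higher and 14.7% lower of all genes. These calls were lost in 8, 7, 13 and 8 of 18 alternatives. Both baselines share the KA libraries. These fits did not use the homogenate shared by IP and input, and with the homogenate as a block more members passed with either baseline. Groups of 3 samples are too small for a test of single outlying samples.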

How the results depend on the processing

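No gene that passed a test changed sign under any alternative, while some nuclear medians did when 1 library was left out (ranges below). Of the counts and medians recomputed without leaving out a library 327 kept within the set limits and 48 did not. The cause was not tested. Counts of passing members here and in the next paragraph are given without the share of all genes in the same fit. They describe the dependence on the setting and are not read as results about the members. Passing nuclear members in the KA IP against the AAV control numbered 6 without the FPKM filter, 6 with the replicate block, 29 in run 1 alone, 12 with the run covariate and 1 at a summed count of at least 1800, and the mitochondrial median was -0.78 in run 1. In the input the nuclear count was 3 by DESeq2, 2 without filter, 5 with the block, 60 in run 1 and 16 with the covariate, and the mitochondrial count 5 in run 1. Against PBS the block left 2 nuclear members in the IP, and the input had 8 by DESeq2, 11 without filter and 2 at 1800, with 11 mitochondrial mRNAs without filter. PBS against AAV control gave 1 mitochondrial mRNA by DESeq2 and 3 without filter in the IP, and 3 and 7 in the input, where 1 nuclear member passed without filter. IP against input had 52 nuclear members with the block and 65 in run 1 in the AAV control, and 32 without filter, 39 with the block and 41 in run 1 in the KA group. The interaction with the AAV baseline had 0 nuclear members by voom, 3 without filter, 8 with the block, 32 in run 1 and 6 with the covariate, and 5 mitochondrial mRNAs by DESeq2, 4 without filter and 8 with the block, in run 1 or with the covariate (median -0.84 in run 1). With the PBS baseline it had 1 nuclear member with DESeq2 size factors, by voom or without mitochondrial genes in the totals and 6 without filter or with the block, and 5 mitochondrial mRNAs by DESeq2, 0 by voom, 8 without filter and 5 with the block. The mean nuclear IP to input ratio of the KA group was 1.27 from TMM-scaled CPM.

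Leaving out 1 library at a time gave these ranges of nuclear count, nuclear median, mitochondrial count and mitochondrial median. KA against AAV control gave 0 to 6, -0.18 to 0.42, 2 to 7 and -1.46 to -1.04 in the IP and 0 to 28, 0.00 to 0.60, 0 to 3 and -0.26 to 0.34 in the input. KA against PBS gave 2 to 9, -0.28 to 0.39, 10 to 11 and -2.58 to -1.77 in the IP and 3 to 40, -0.23 to 0.12, 2 to 10 and -1.02 to -0.63 in the input. PBS against AAV control gave 0 to 3, -0.21 to 0.21, 0 to 3 and 0.39 to 1.37 in the IP and 0 to 63, 0.05 to 0.56, 0 to 10 and 0.68 to 1.10 in the input. IP against input gave 7 to 33, 0.13 to 0.58, 7 to 10 and -2.41 to -1.69 in the AAV control, 10 to 38, -0.06 to 0.33, 9 to 12 and -2.38 to -1.59 in the PBS and 3 to 13, -0.12 to 0.52, 11 to 12 and -3.40 to -2.97 in the KA group. The interaction gave 0 to 1, -0.41 to 0.23, 1 to 4 and -1.51 to -1.05 with the AAV and 0 to 4, -0.22 to 0.39, 0 to 9 and -1.87 to -1.06 with the PBS baseline. Without sample 3 of the AAV control input the nuclear count was 28 for KA and 63 for PBS against AAV control, and without sample 3 of the KA input it was 40 for KA against PBS. Without sample 3 of the PBS IP the nuclear count for IP against input was 38, without sample 3 of the KA IP the nuclear median of the KA group was -0.12, and without sample 2 of the PBS IP the PBS interaction had 9 mitochondrial mRNAs. KA and PBS samples did not pair by number (correlations -0.294 to 0.106), nor did PBS and AAV control samples (-0.231 to 0.354).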
